A study of Homo sapiens with 24 samples.

Results

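Chromatin accessibility was examined at 4 windows of the human genome that hold 5 long noncoding RNA (lncRNA) genes studied in prostate cancer: PCA3, SCHLAP1, PCGEM1 and the neighbouring pair NEAT1 and MALAT1. The members were all FAIRE-seq peaks that overlapped, in hg19, chr9:79330000-79450000 (PCA3), chr2:181500000-181830000 (SCHLAP1), chr2:193560000-193700000 (PCGEM1) or chr11:65170000-65300000 (NEAT1/MALAT1). They numbered 1970 of the 4663440 peaks on the standard chromosomes in 24 lists, with 450 at PCA3, 711 at SCHLAP1, 210 at PCGEM1 and 599 at NEAT1/MALAT1. FAIRE (formaldehyde-assisted isolation of regulatory elements) recovers DNA that is poorly bound by nucleosomes, so that a peak marks open chromatin and gives no RNA level.

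The libraries came from 2 sublines of a prostate cancer cell line. LNCaP is the androgen-sensitive parental line and RES-A is its derivative, obtained by passaging in rising concentrations of enzalutamide (ENZ, an androgen receptor antagonist) for 9.5 months. Both spent 3 days in androgen-poor medium (5% charcoal-stripped serum), to which ENZ was added for RES-A only. DMSO (the vehicle), 10 nM dihydrotestosterone (DHT, the natural ligand of the androgen receptor), 10 µM ENZ or DHT+ENZ at those doses then followed for 18 h, with 3 libraries in each of 8 groups, named biological triplicates by the study. RES-A is a single derived line, and its DMSO cells had left ENZ only at the start of that treatment, so that resistance, clonal history and earlier drug exposure cannot be told apart in a comparison of the sublines.

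PCA3 lies within an intron of PRUNE2 on the opposite strand, and its RNA is measured in urine as a marker of prostate cancer. SCHLAP1 is an intergenic lncRNA associated with aggressive tumours and known to act against the SWI/SNF chromatin remodelling complex. PCGEM1 is a prostate-enriched, androgen-responsive lncRNA, whereas NEAT1, the scaffold of nuclear paraspeckles, and MALAT1, a component of nuclear speckles, are abundant in most cell types and lie side by side on chromosome 11.

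The start sites of these genes differ in base composition, and the sequences below show it. RefSeq promoters (250 bases before to 50 bases after an annotated start, GRCh38.p14, plus strand) were found for 3 of the 5 genes, and capitals mark matches to the core hexamer of the androgen response element (AGAACA, or TGTTCT on the other strand), the forkhead core TGTTTAC or the TATA box TATAAA, each searched on both strands. SCHLAP1 and NEAT1 are named only. PCGEM1 is chr2:192749595-192749894, PCA3 chr9:76764186-76764485, the upstream MALAT1 start chr11:65497488-65497787 and the downstream MALAT1 start chr11:65498795-65499094.
PCGEM1 promoter: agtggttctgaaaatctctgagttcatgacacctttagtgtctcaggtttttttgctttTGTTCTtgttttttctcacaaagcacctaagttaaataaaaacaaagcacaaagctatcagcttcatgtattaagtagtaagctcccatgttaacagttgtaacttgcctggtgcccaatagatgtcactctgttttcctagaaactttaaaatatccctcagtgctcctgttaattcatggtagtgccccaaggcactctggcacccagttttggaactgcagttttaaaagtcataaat
PCA3 promoter: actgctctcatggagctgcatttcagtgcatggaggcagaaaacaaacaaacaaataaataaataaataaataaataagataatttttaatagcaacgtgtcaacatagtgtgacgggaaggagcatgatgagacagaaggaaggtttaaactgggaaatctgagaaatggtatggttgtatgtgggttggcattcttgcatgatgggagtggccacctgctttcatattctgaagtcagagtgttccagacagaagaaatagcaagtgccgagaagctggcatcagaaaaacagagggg
MALAT1 upstream promoter: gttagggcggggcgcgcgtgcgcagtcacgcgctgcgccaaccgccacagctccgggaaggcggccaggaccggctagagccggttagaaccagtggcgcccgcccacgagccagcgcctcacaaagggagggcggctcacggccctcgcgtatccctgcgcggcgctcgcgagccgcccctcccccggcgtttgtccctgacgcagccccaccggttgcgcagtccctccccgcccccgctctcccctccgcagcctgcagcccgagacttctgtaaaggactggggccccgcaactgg
MALAT1 downstream promoter: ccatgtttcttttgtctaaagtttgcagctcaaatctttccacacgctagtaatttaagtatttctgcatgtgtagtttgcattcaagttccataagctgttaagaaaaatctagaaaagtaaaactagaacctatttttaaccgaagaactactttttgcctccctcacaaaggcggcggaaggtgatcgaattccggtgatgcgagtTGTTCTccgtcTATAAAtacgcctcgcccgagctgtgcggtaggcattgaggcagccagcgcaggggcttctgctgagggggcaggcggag

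The PCGEM1 promoter had no CG dinucleotide and a GC content of 38.0%, with TGTTCT at base 60. The upstream MALAT1 promoter had 37 CG dinucleotides, more than 88.7% of 35116 RefSeq promoters, and a GC content of 73.7%. PCA3 (3 CG) and that MALAT1 start held none of the searched motifs, and the downstream MALAT1 start (14 CG) held TGTTCT at base 210 and TATAAA at base 221. Of all promoters of this length, 14.8% held AGAACA, 3.40% TGTTTAC and 11.5% TATAAA on either strand. The peaks are in hg19 and hg19 gene positions were not used here, so no peak is assigned to a promoter, exon or intron.

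To compare libraries of unequal depth, the 50000 peaks of each library with the highest −log10 p were used (top-ranked peaks) and merged over all libraries into 119410 regions, of which 50 lay in the windows: 10 at PCA3, 18 at SCHLAP1, 4 at PCGEM1 and 18 at NEAT1/MALAT1. Regions are numbered by position within their window. Lists held from 72950 to 274578 peaks, and 2 libraries, LNCaP ENZ replicate 1 and LNCaP DHT replicate 1, had a background under 1 read per base against up to 5.99 in the others. These 2 shallow libraries gave 9 of the 13 regions of the windows that were called (held a top-ranked peak) in only 1 library, 7 of them in LNCaP ENZ replicate 1 alone. Results resting on them are given with and without them, except where stated.

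Top-ranked peaks were dense at NEAT1/MALAT1 and PCA3 and sparse at PCGEM1. Per Mb and library they were 76.6 at NEAT1/MALAT1, 51.4 at PCA3, 18.4 at SCHLAP1 and 4.17 at PCGEM1, against 16.2 over all chromosomes. With every deposited peak the PCGEM1 density was 94.0 in LNCaP and 31.0 in RES-A, against 62.5 and 63.1 over all chromosomes. A total of 4 regions were called in all 24 libraries, namely PCA3 region 6 and NEAT1/MALAT1 regions 1, 12 and 17, and over all regions 10.6% were.

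**Figure D1:**
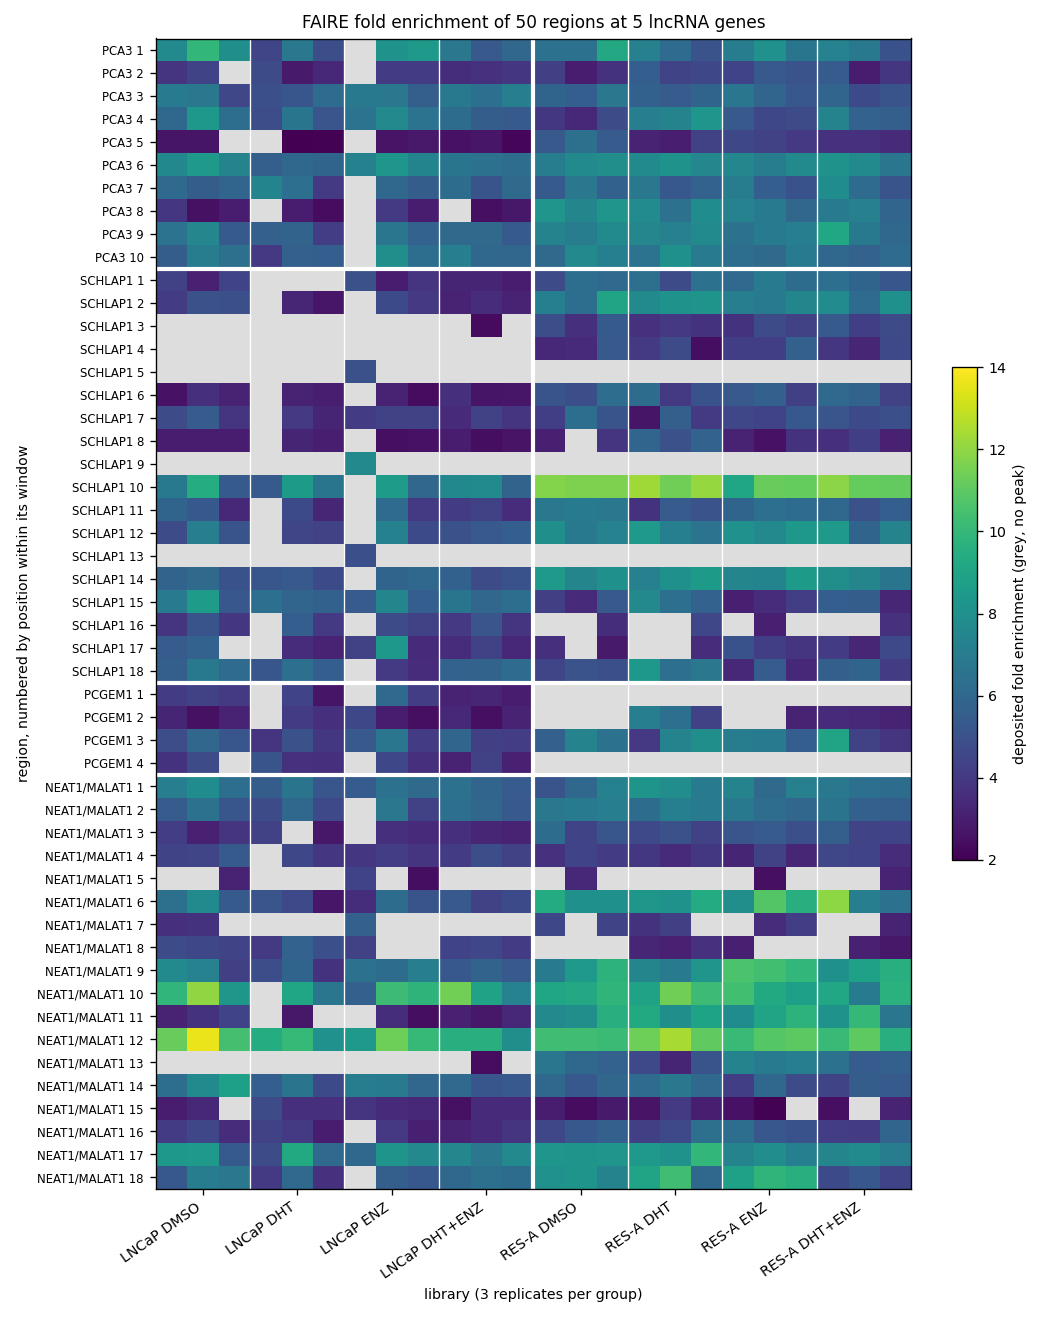
Deposited fold enrichment (colour, no unit) of the 50 regions (lines, by window and position) in the 24 libraries (columns, 3 replicates per group, LNCaP left and RES-A right), with grey where a library had no peak. NEAT1/MALAT1 region 12 was bright in every library, whereas SCHLAP1 regions 3 and 4 and NEAT1/MALAT1 region 13 had peaks in all 12 RES-A libraries and in at most 1 LNCaP library.

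The highest regions of each window set its scale. Fold enrichment is the ratio of the pileup of fragments at a peak's summit to the pileup the peak caller expected there. NEAT1/MALAT1 region 12 (chr11:65254845-65255479) had a median of 10.3 (range 7.93 to 13.6, 24 libraries), the highest of the 50, and its best rank in any list was 252. NEAT1/MALAT1 regions 10 (chr11:65244904-65245268) and 17 (chr11:65278208-65278580) followed in that window with medians of 9.22 (23 libraries) and 7.72 (24 libraries).

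SCHLAP1 region 10 (chr2:181579537-181580333) led its window with a median of 9.45 over 23 libraries, and region 12 (chr2:181628100-181628800) reached 6.98 over 22. SCHLAP1 region 9 would stand between them at 7.64, but rested on the shallow LNCaP ENZ replicate 1 alone. At PCA3 the medians of regions 6 (chr9:79414188-79414867), 1 (chr9:79344371-79345336) and 9 (chr9:79442442-79443159) were 7.49, 6.80 and 6.70. These 3 had ranges that overlapped widely, from 4.18 to 9.93 over all their values. At PCGEM1 only region 3 (chr2:193614305-193614786) had a peak in all 24 libraries, with a median of 5.47 and a range of 3.83 to 9.03, and regions 1 and 4 had medians of 4.10 and 3.72 over 10 libraries each.

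Deposited folds were higher in RES-A than in LNCaP across the genome, by a median of 0.35 on the log2 scale over the 29058 regions with a peak in every library, and in 88.1% of them. Raw folds therefore do not compare the sublines. Folds were quantile normalised between libraries and tested with limma over the 8 groups, which left the median subline difference of all regions at 0.01. Regions without a peak in every library were compared by whether they were called, with Fisher's exact test of 12 against 12 libraries.

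By calls, 17 of the 50 regions could be tested (called in 6 to 18 libraries) and 10 differed between the sublines after Benjamini-Hochberg adjustment over all 38564 regions tested, 7 with more calls in RES-A and 3 with more in LNCaP. Over all regions tested 57.7% differed, 31.6% toward RES-A and 26.1% toward LNCaP. By normalised enrichment 11 of the 50 could be tested with limma and 8 differed, 2 higher and 6 lower in RES-A, against 35.7% of all regions (17.9% higher and 17.9% lower). The median log2 difference of the 11 was -0.19. The windows thus took part in a difference between the sublines that ran through the genome, and nothing particular to them is read from these counts.

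At PCA3 the sublines differed in which regions were called. PCA3 region 8 (chr9:79433174-79433731) was called in 0 of 12 LNCaP and 12 of 12 RES-A libraries (Fisher's exact test, adjusted p = 1.29e-05). Its fold ranged from 2.40 to 4.06, with a median of 2.93, in the 9 LNCaP libraries with a peak, and from 5.90 to 8.28, with a median of 7.28, in RES-A. The ranges did not overlap, with every RES-A value above every LNCaP value. As the libraries are bulk samples, fewer cells with an open element and a weaker opening in every cell cannot be told apart.

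PCA3 regions 3 and 4 moved the other way, though both had a peak of any rank in all 12 libraries of each subline. Region 3 (chr9:79376266-79377319) was called in 11 LNCaP and 0 RES-A libraries (exact test, adjusted p = 7.84e-05), and its normalised enrichment was lower in RES-A by a log2 difference of -0.35 (SE 0.09, limma adjusted p = 0.00285). Region 4 (chr9:79407888-79408410) was called in 12 LNCaP and 6 RES-A libraries (exact test, adjusted p = 0.0248), with a log2 difference of -0.41 (SE 0.08, limma adjusted p = 0.000116). The call difference of region 4 was lost with same-numbered libraries blocked (adjusted p = 0.0543) and with every region called in at least 2 libraries tested (0.0599). Its limma difference over all treatments passed under every alternative, at adjusted p of 1.75e-10 to 0.000368, but was uneven among the treatments. It was -0.73 with DMSO and -0.80 with ENZ (SE 0.15 each, limma adjusted p = 0.00273 and 0.00135), against -0.01 with DHT and -0.09 with DHT+ENZ (SE 0.15 each, limma adjusted p = 0.974 and 0.8). Of all regions, 7.24% passed with DMSO, 8.77% with ENZ, 12.4% with DHT and 8.12% with DHT+ENZ. The test of DHT against DMSO between the sublines did not pass (limma adjusted p = 0.31), so the subline difference is not shown to change between DMSO and DHT. Its change between ENZ and DHT+ENZ was not tested.

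The leading PCA3 region 6 had a small difference of -0.19 (SE 0.07, limma adjusted p = 0.0293), which was lost without LNCaP DHT replicate 3, LNCaP ENZ replicate 1 or RES-A ENZ replicate 2 (adjusted p of up to 0.0531) and passed without both shallow libraries, at -0.21 (SE 0.07, limma adjusted p = 0.00912). Region 1, which could be tested only without them, was lower in RES-A by a difference of -0.38 (SE 0.08, limma adjusted p = 0.000385). Regions 7, 9 and 10 were each called in at least 6 libraries of both sublines. PCA3 region 5 (chr9:79408767-79409117), just beyond region 4, had folds of 1.97 to 2.82 in 9 LNCaP libraries and 2.99 to 6.43 in the 12 RES-A libraries. The nearest values of these ranges lay closer than the median shift of raw folds between the sublines. The medians, 2.655 and 4.173, lay further apart than that shift. The region was called only in RES-A DMSO replicate 2. With a peak required in only 20 libraries its normalised difference was 0.59 (SE 0.08, limma adjusted p = 1.56e-06), where 46.3% of all regions passed.

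At SCHLAP1 elements differed in both directions. Regions 2 (chr2:181536780-181537373) and 6 (chr2:181557133-181557457) were called more often in RES-A, in 12 against 1 and in 6 against 0 libraries (exact tests, adjusted p = 7.84e-05 and 0.0248). The call difference of region 6 was lost under the replicate block (adjusted p = 0.0543) and with every region called in at least 2 libraries tested (0.0599). Region 2 had folds of 2.73 to 4.96, with a median of 3.76, in 10 LNCaP libraries and of 6.18 to 9.03, with a median of 7.63, in RES-A. The nearest values of these ranges lay closer than the median shift of raw folds between the sublines, whereas the medians lay further apart than that shift.

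Region 15 (chr2:181731708-181732355) was called in 12 of 12 LNCaP libraries and in 0 of 12 RES-A libraries (exact test, adjusted p = 1.29e-05). It kept a peak of lower rank in every RES-A library, with folds of 3.06 to 7.65 and a median of 4.82, against 5.24 to 8.62 and a median of 6.16 in LNCaP. These raw ranges overlapped, and the normalised log2 difference was -0.66 (SE 0.09, limma adjusted p = 3.34e-06), the largest in size among the 11 regions tested. With DHT the difference was -0.34 and did not pass (SE 0.19, limma adjusted p = 0.238), and the RES-A folds of 7.65, 6.40 and 5.77 overlapped the LNCaP folds of 6.38, 5.92 and 5.72. With DMSO, ENZ and DHT+ENZ it passed, at -0.63, -1.01 and -0.64 (SE 0.19 each, limma adjusted p = 0.0341, 0.00113 and 0.0309). The DHT effect was not shown to differ between the sublines (0.29, SE 0.26, limma adjusted p = 0.823).

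SCHLAP1 regions 3 (chr2:181542032-181542358) and 4 (chr2:181544629-181544943) were too weak to be called in more than 1 library and were picked out after their values were seen. With peaks of any rank, region 3 had a peak in 1 LNCaP and 12 RES-A libraries and region 4 in 0 and 12 (exact tests over all deposited peaks, adjusted p = 5.07e-05 and 7.19e-06). Both had entered the set of regions through a call in 1 RES-A library and 0 LNCaP libraries. As the regions were admitted and picked in this way, these tests have no weight as support. Folds in RES-A were 3.64 to 5.42 at region 3 and 2.44 to 5.68 at region 4. With peaks of any rank 5 of 10 regions of the windows that could be tested differed, against 64.6% of all regions.

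SCHLAP1 region 10, the highest of its window, was called in 11 LNCaP and 12 RES-A libraries and had no peak in the shallow LNCaP ENZ replicate 1. Its folds were 5.39 to 9.45 in LNCaP and 9.12 to 12.3 in RES-A. Without the 2 shallow libraries 28 regions of the windows could be tested for enrichment, and 20 differed (7 higher and 13 lower in RES-A) against 47.2% of all regions. In that fit SCHLAP1 regions 10 and 2 were higher in RES-A by 0.30 (SE 0.07, limma adjusted p = 0.000334) and 0.75 (SE 0.09, limma adjusted p = 2.28e-08), and region 15 was lower by a difference of -0.72 (SE 0.10, limma adjusted p = 2.61e-07).

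**Figure D2:**
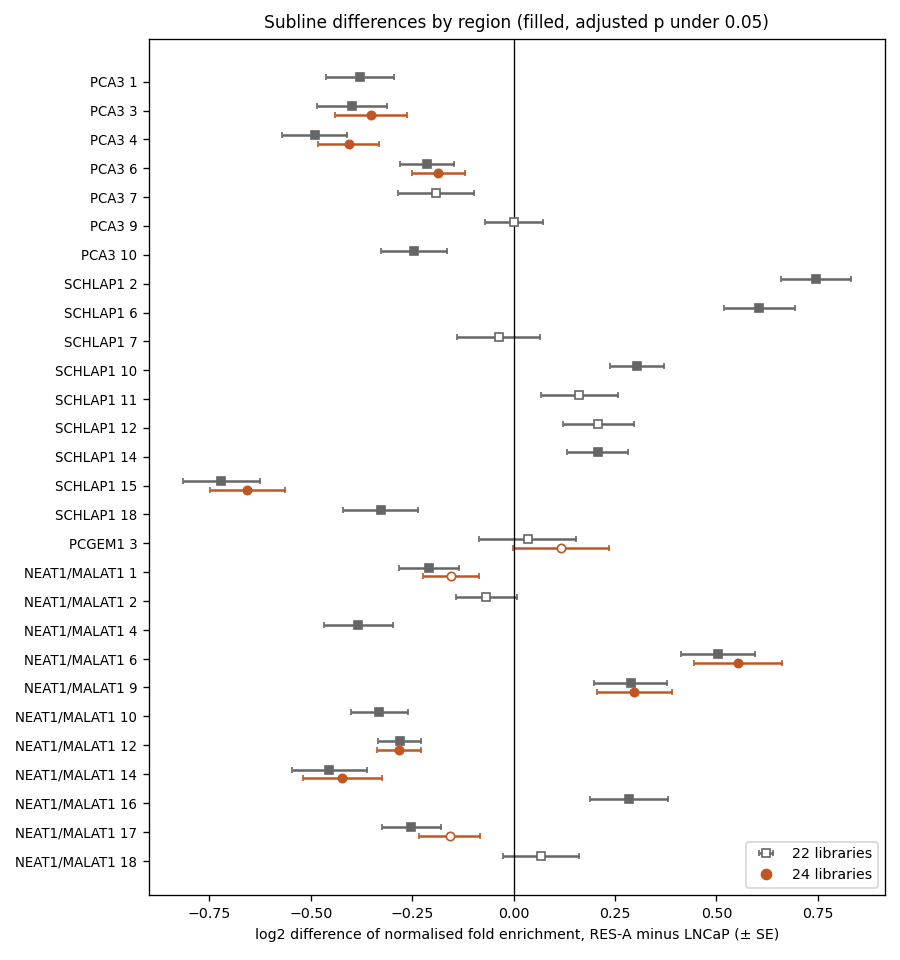
Difference of quantile-normalised log2 fold enrichment between RES-A and LNCaP (x axis, log2, with SE) for each region with a peak in all 24 libraries (circles, 11 regions) or in the 22 left without the shallow libraries (squares, 28 regions), filled where the limma adjusted p was under 0.05. SCHLAP1 region 15 lay lowest at -0.72 and SCHLAP1 region 2 highest at 0.75 in the 22 libraries.

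At PCGEM1 RES-A had fewer deposited peaks than LNCaP. Top-ranked peaks were few, 0.917 ± 0.669 per LNCaP library and 0.25 ± 0.452 per RES-A library (SD, n = 12 each), and this difference did not pass (permutation within treatments, p = 0.035, adjusted over the 4 windows 0.07). With every deposited peak the counts were 13.2 ± 6.48 in LNCaP and 4.33 ± 0.985 in RES-A (SD, n = 12 each), a difference of -8.83 peaks (permutation adjusted p = 0.0016).

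LNCaP libraries held from 2 to 23 peaks there, with a median of 14.5, and RES-A libraries from 3 to 6, with a median of 4.5. Only the shallow LNCaP ENZ replicate 1 (2 peaks) and LNCaP DHT replicate 1 (3 peaks) lay within or below the RES-A range, and the other 10 LNCaP libraries held 9 or more. Without these 2 the difference was -10.97 (adjusted p = 0.00012, permutation). That omission took out the shortest lists (72950 and 81865 peaks). LNCaP lists, with a mean of 193284 peaks against 195336 in RES-A, thus became longer on average, and the counts were not scaled to list length. The flank ratios that follow include all 24 libraries. The surrounding chromosome moved the same way to a smaller degree: in the flanks of 5 Mb on either side the ratio of RES-A to LNCaP was 0.702 for all peaks (permutation adjusted p = 0.0952) and 0.734 for top-ranked peaks (2e-05), against 0.329 for all peaks in the window. The part of the flanking decrease in the window's difference was not tested.

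Merging all deposited peaks gave 44 sites at PCGEM1, of which 10 had peaks in 6 to 18 libraries and could be tested. Of these, 6 differed with peaks in more LNCaP libraries (Fisher's exact test adjusted over 124748 sites) and 0 with peaks in more RES-A libraries (at an unadjusted p under 0.05 also 0), against 18.8% and 26.7% of all sites. Without the 2 shallow libraries the 6 became 7. Regions 1 (chr2:193575989-193576528) and 4 (chr2:193634974-193635152) each had a peak in 10 of 12 LNCaP libraries and in no RES-A library, with folds of up to 6.09 and 5.14. Each entered the set of regions through a call in 1 LNCaP library and 0 RES-A libraries. The exact test over all deposited peaks (adjusted p = 0.000254 for each) is therefore no independent support for the difference. The fold of 5.14 came from the shallow LNCaP DHT replicate 1, the only library that called region 4. No test of these regions without the shallow libraries is given.

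**Figure D3:**
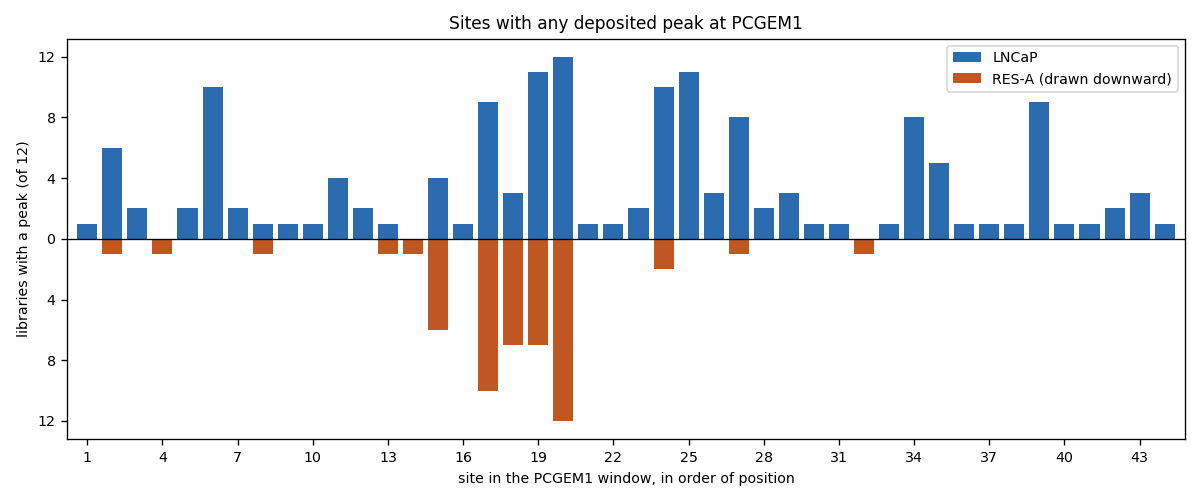
Number of LNCaP libraries (upward bars) and RES-A libraries (downward bars), of 12 each, with any deposited peak at each of the 44 PCGEM1 sites, in order of position. Site 20, which holds region 3, had a peak in all 24 libraries, and sites 6 and 25, which hold regions 1 and 4, had peaks in 10 and 11 LNCaP libraries and in 0 RES-A libraries.

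At the leading PCGEM1 region 3 no difference passed, and calls and enrichment went in opposite directions. Region 3 was called in 8 LNCaP and 3 RES-A libraries (exact test, adjusted p = 0.149), and its normalised log2 difference was 0.12 (SE 0.12, limma adjusted p = 0.47). Its folds in RES-A spread from 3.85 to 9.03 with a median of 6.70, against 3.83 to 6.72 and 4.90 in LNCaP, so that a difference was not detectable beyond the spread between libraries.

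At NEAT1/MALAT1 RES-A had more top-ranked peaks, 11.2 ± 0.866 against 8.67 ± 1.44 per library (SD, n = 12 each, permutation adjusted p = 0.00024). The counts ran from 10 to 13 with a median of 11 in RES-A and from 6 to 10 with a median of 9 in LNCaP, meeting only at 10. The excess depended on the rank taken. With 25000 peaks per library the difference was -0.333 (adjusted p = 0.811) and with all deposited peaks 3.58 (adjusted p = 0.0927, permutation). In the flanks of 5 Mb the ratio of RES-A to LNCaP was 1.03 (permutation adjusted p = 0.0591), against 1.30 in the window.

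The added peaks were regions of middle rank. Region 11 (chr11:65246715-65247089) was called in 0 LNCaP and 12 RES-A libraries (exact test, adjusted p = 1.29e-05), with folds of 2.44 to 4.43 in 9 LNCaP libraries and 6.73 to 10.0 in RES-A, which did not overlap. Region 13 (chr11:65261926-65262299) was called in 0 and 10 (adjusted p = 0.000368, exact test) and had a peak of any rank in 1 LNCaP library, at a fold of 2.40, and in all RES-A libraries, at 3.25 to 7.35. Regions 3 (chr11:65188557-65188983) and 6 (chr11:65222558-65222883) were called in 10 against 2 and in 8 against 1 libraries (exact tests, adjusted p = 0.0089 and 0.0205).

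On the normalised scale regions of this window differed in both directions. Region 12, the strongest, was lower in RES-A by a log2 difference of -0.28 (SE 0.05, limma adjusted p = 0.000154), which was lost with pileup over the genome-wide background in place of fold (adjusted p = 0.262), and region 14 (chr11:65264716-65265285) by -0.42 (SE 0.10, limma adjusted p = 0.00112). Regions 6 and 9 (chr11:65239584-65240029) were higher by 0.55 (SE 0.11, limma adjusted p = 0.000219) and 0.30 (SE 0.09, limma adjusted p = 0.0135). Regions 1 and 17 did not pass the threshold over 24 libraries, at -0.15 (SE 0.07, limma adjusted p = 0.0773) and -0.16 (SE 0.08, limma adjusted p = 0.105). Without the 2 shallow libraries both passed, at -0.21 (SE 0.07, limma adjusted p = 0.0198) and -0.25 (SE 0.07, limma adjusted p = 0.00533). Region 10, the second strongest, could be tested only without them and was lower in RES-A by a difference of -0.33 (SE 0.07, limma adjusted p = 0.000257).

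At PCA3 and SCHLAP1 the difference in top-ranked peaks between the sublines did not pass. PCA3 held 6.50 ± 1.24 top-ranked peaks in LNCaP and 5.83 ± 0.937 in RES-A (SD, n = 12 each, permutation adjusted p = 0.234), from 3 to 8 and from 5 to 7. The count of 3 came from the shallow LNCaP ENZ replicate 1, without which the difference was -0.985 and passed (adjusted p = 0.0236, permutation). The PCA3 difference also depended on the rank taken: it was -1.83 and passed with 25000 peaks per library (permutation adjusted p = 0.00208), whereas with all deposited peaks it turned to 4.33 and did not pass (permutation adjusted p = 0.0918). Without both shallow libraries it was -0.967 (permutation adjusted p = 0.0393). SCHLAP1 held 5.75 ± 1.22 and 6.42 ± 0.90 (SD, n = 12 each, permutation adjusted p = 0.234), from 4 to 8 and from 5 to 8, whereas its flanks held fewer top-ranked peaks in RES-A (ratio 0.848, permutation adjusted p = 2e-05).

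**Figure D4:**
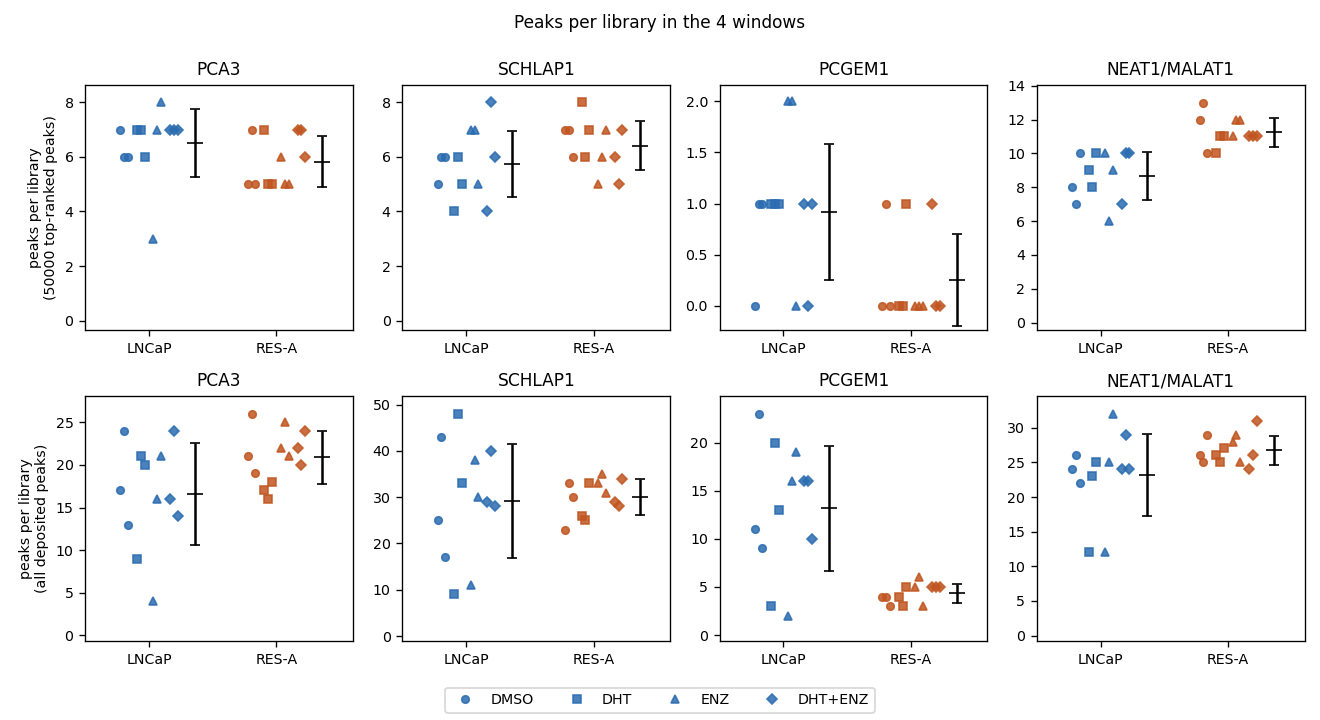
Peaks per library (y axis, count) in the 4 windows for LNCaP (blue) and RES-A (orange), with the 50000 top-ranked peaks above and all deposited peaks below; symbols give the treatment, and bars give mean and SD of 12 libraries. At PCGEM1 all 12 RES-A libraries held 3 to 6 deposited peaks, and 10 of 12 LNCaP libraries held 9 or more.

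Within each treatment, regions called in 3 of 3 libraries of a subline and in 0 of 3 of the other were counted as separated, without a test. They were 5 of 32 called regions of the windows under DMSO, 5 of 38 under DHT, 9 of 42 under ENZ and 8 of 33 under DHT+ENZ, against 14.5%, 12.5%, 10.9% and 15.6% of all called regions. SCHLAP1 region 15, PCA3 region 8 and NEAT1/MALAT1 region 11 were separated under all 4 treatments, the first toward LNCaP and both others toward RES-A. SCHLAP1 region 2 was separated toward RES-A under DHT, ENZ and DHT+ENZ, PCA3 region 3 toward LNCaP under the same 3, and PCA3 region 4 toward LNCaP under DMSO and ENZ. NEAT1/MALAT1 region 13 was separated toward RES-A under DMSO, ENZ and DHT+ENZ, and region 3 of that window under ENZ and DHT+ENZ. These counts include the shallow libraries of the LNCaP DHT and LNCaP ENZ groups.

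Among the treatments, DHT in RES-A moved PCA3 region 4. Its folds in RES-A were 3.96, 3.39 and 4.74 with DMSO and 7.13, 7.35 and 8.32 with DHT. Under ENZ they were 5.37, 4.58 and 4.75, and under the combination 7.36, 5.78 and 5.62. All DHT values lay above all DMSO and ENZ values, and the region was called in 3 of 3 libraries of both groups given DHT and in 0 of 3 of the groups without it.

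The DHT minus DMSO difference in RES-A was 0.78 on the normalised log2 scale (SE 0.15, limma adjusted p = 0.00177), and 1 of the 11 regions tested, this one, passed, against 4.66% of all regions. The median difference of the 11 was 0.10 against -0.01 over all regions. Its adjusted p stayed between 2.39e-05 and 0.0214 over all alternatives. Of 32 called regions of the windows it alone was separated between these groups, against 9.00% of all called regions. In the other treatment contrasts no region of the windows was separated, where 3.87% of all called regions were for DHT in LNCaP, 0.832% and 1.04% for ENZ in LNCaP and RES-A, and 2.69% and 4.15% for DHT+ENZ against DHT. With DHT+ENZ the difference from DHT was -0.22 (SE 0.15, limma adjusted p = 0.879), so that a reversal by ENZ was not detected.

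In LNCaP, folds of PCA3 region 4 were 6.06, 8.41 and 6.33 under the vehicle and 4.85, 6.68 and 5.15 under DHT. They were 6.55, 7.65 and 6.55 under ENZ and 6.25, 5.52 and 5.42 under the combination. The groups overlapped and the normalised DHT difference was 0.06 (SE 0.15, limma adjusted p = 0.86). The difference between the DHT effects of the sublines, 0.72 (SE 0.21), did not pass (limma adjusted p = 0.31), and 0.00688% of all regions did. On the normalised scale the mean of region 4 was 2.77 ± 0.12 in RES-A with DHT and 2.72 ± 0.22 in LNCaP with DMSO (log2, SD, n = 3 each), against 1.99 ± 0.16 in RES-A with DMSO.

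**Figure D5:**
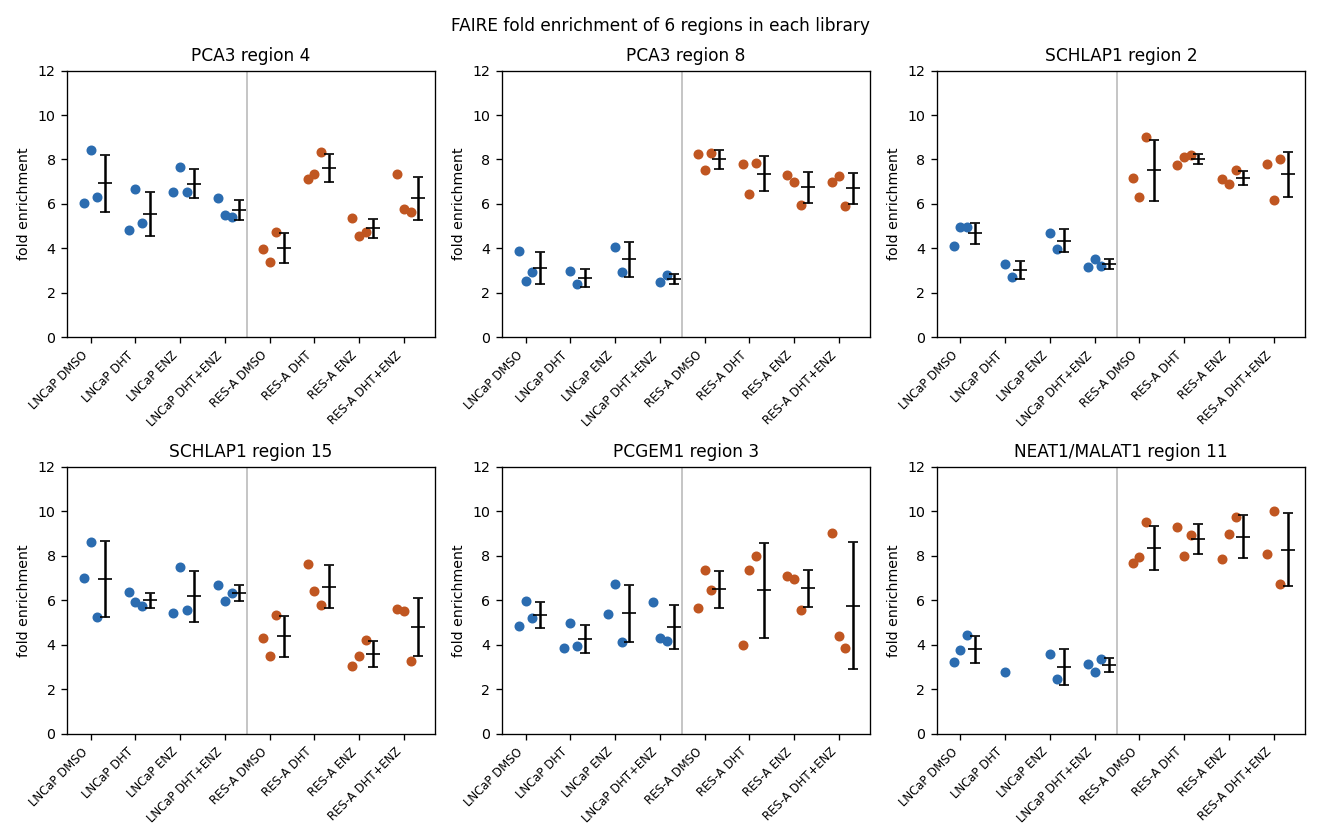
Deposited fold enrichment (y axis, no unit) of 6 regions in each library (points, blue for LNCaP and orange for RES-A) with mean and SD of each group (bars); a missing point is a library without a peak. At PCA3 region 4 the RES-A libraries with DHT lay between 7.13 and 8.32, all above RES-A with DMSO, and at PCA3 region 8 and NEAT1/MALAT1 region 11 the sublines were apart under every treatment.

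Further differences, named after their values were seen, appeared without the 2 shallow libraries, when 28 regions were tested. In RES-A, SCHLAP1 regions 15 and 18 (chr2:181799295-181800347) were higher with DHT by 0.59 (SE 0.18, limma adjusted p = 0.0326) and 0.55 (SE 0.17, limma adjusted p = 0.041) beside PCA3 region 4, giving 3 of 28 regions against 10.1% of all regions. SCHLAP1 region 15 had folds of 4.29, 3.47 and 5.35 with DMSO and 7.65, 6.40 and 5.77 with DHT. These did not overlap, yet over all 24 libraries the difference of 0.51 did not pass (SE 0.19, limma adjusted p = 0.129).

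NEAT1/MALAT1 region 18 (chr11:65292300-65292664) was lower with DHT+ENZ than with DHT in RES-A by -0.71 in the same 22 libraries (SE 0.18, limma adjusted p = 0.0478), against 0.755% of all regions. Its folds were 9.03, 10.3 and 6.01 with DHT and 4.71, 5.26 and 4.41 with DHT+ENZ, which did not overlap. Folds with DMSO were 8.05, 8.22 and 7.36 and with ENZ 8.86, 9.86 and 9.53, so the group given both agents stood alone. Over 24 libraries it was not tested, for want of a peak in LNCaP ENZ replicate 1.

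With a peak required in only 20 libraries, SCHLAP1 region 8 (chr2:181560741-181561097) was higher with DHT than with DMSO in RES-A by 0.62 (SE 0.16, limma adjusted p = 0.0126) and PCA3 region 5 was lower by -0.66 (SE 0.15, limma adjusted p = 0.00615), with 7.75% of all regions passing. PCA3 region 5 had folds of 5.33, 6.43 and 5.44 with DMSO and of 3.18, 2.99 and 4.35 with DHT. In RES-A given DHT it was thus lower while region 4, its neighbour, was higher.

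No region of the windows passed in the other contrasts of the 24 libraries. For DHT in LNCaP 0 of 11 regions passed, against 2.37% of all regions. For ENZ against DMSO limma called 0 regions in either subline, in the windows and in the genome, and at an unadjusted p under 0.05 there were 2753 in LNCaP (1 in the windows, PCA3 region 3) and 435 in RES-A (0 in the windows). For DHT+ENZ against DHT limma called 85 regions (0.293%) in LNCaP and 0 in RES-A, where 2025 had an unadjusted p under 0.05, 1 of them in the windows. Peaks per window did not differ by treatment in any of 24 comparisons of 3 against 3 libraries (exact permutation tests, adjusted p of 1 throughout), a design whose smallest possible p is 0.1.

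For the leading region of each window, the region elsewhere with the most similar normalised profile over the 24 libraries was sought among all regions with a peak in every library, so that a high value was bound to occur. PCA3 region 6 was most like chr20:11135771-11136494 (Pearson r = 0.879) and NEAT1/MALAT1 region 12 was most like chr14:94805598-94806058 (r = 0.91). SCHLAP1 region 15, the only region of its window with a peak in every library, was most like chr5:52156978-52157561 (r = 0.931). PCGEM1 region 3 reached 0.699 with chr14:21575035-21575309. Libraries share the subline difference and depth, so these values describe the 24 libraries and nothing further.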

How the data were processed

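FAIRE-seq peak lists of 24 libraries (8 groups of 3, groups and replicate numbers from the titles) were analysed. Per the labels the authors aligned 50-bp single-end reads to hg19 with BWA 0.7.8-r455, marked duplicate reads (Picard 1.118) and made a peak list per library with MACS2 2.1.0; its options and any control library are not given in the sources used here. The deposited lists give for each peak the pileup at the summit (a signal, not scaled between libraries), the −log10 p and −log10 q, and the fold enrichment, a ratio of pileup to expected pileup, as the authors' peak caller wrote them. Read totals are unknown, so no counting interval is given. Background per base was recovered as (pileup + 1) / fold − 1, an assumption on the caller's pseudocount, and its smallest value served as a measure of depth.

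The members and their windows, tests and lists were chosen with earlier results of these data known. Peaks were ranked by −log10 p, the 50000 highest per library merged (overlap of at least 1 bp) and regions called in 6 to 18 libraries compared by two-sided Fisher's exact test. Log2 fold of the 29058 regions with a peak in all libraries was quantile normalised and fitted with limma 3.58.1 (R 4.3.3; 8 group means, variance trend, no block). Peaks per window were compared by 100000 two-sided permutations within treatments or, for 3 against 3, exactly. Adjustment was by Benjamini-Hochberg over all regions or all windows, with a threshold of 0.05. Named were, per window, the 3 regions of highest median fold, up to 4 past the threshold in calls and in enrichment by subline, and those past it or separated in a treatment contrast. Regions from all deposited peaks were added after the data were seen. The limma fit and the exact test of calls were checked on simulated data, and the permutation tests were not. Between replicates at most 0.02% of peaks were identical. Python 3.11.15, SciPy 1.17.1 and pandas 2.3.3 were used.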

Additional observations from a re-analysis of the deposited data

How the results depend on the processing

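Of the 19 differences of single regions that passed (10 in calls, 8 in enrichment by subline and 1 for DHT in RES-A), 15 kept their direction and passed under every alternative that could be computed, 4 were lost under at least 1 and 0 reversed. Of the 10 in calls, only NEAT1/MALAT1 region 13 could be tested with all deposited peaks, since the others had a peak of any rank in more than 18 libraries. With 25000 peaks only that region and PCA3 region 4 could be tested. The remaining call differences were thus not tried at another rank, and most of their alternatives omitted a single library. Of the regions tested, 10 of 17 were called differently between sublines, against 57.7% of all regions. With 25000 top-ranked peaks they were 5 of 8 (50.7% of all regions), 1 toward RES-A and 4 toward LNCaP, against 7 and 3 before. They were 5 of 10 with all deposited peaks (64.6%) and 8 of 17 under the replicate block (46.9%). Over regions merged from all deposited peaks 21 differed, where 26.7% of all sites differed toward RES-A and 18.8% toward LNCaP. Without the shallow libraries 23 merged regions of the windows differed, where 30770 and 30569 of 125840 sites did. This last pair was chosen after seeing the data. Without any single library 9 to 12 differed, against 56.4% to 60.1% of all regions. In enrichment 8 of 11 regions differed, against 35.7% of all regions. They became 25 with a peak in at least 20 libraries (46.3%) and 20 without the shallow libraries (47.2%), since more regions were tested. Without any single library they were 7 to 9, where the shares of all regions are not given and the range is not read. For DHT in RES-A the 1 region (4.66% of all regions passed) became 3 with a peak in at least 20 libraries (7.75%) and 3 without the shallow libraries (10.1%). It became 2 with median centring and 2 with library weights, where the shares of all regions are not given and the rise is not read. For DHT+ENZ against DHT in RES-A 0 became 1 without the shallow libraries (0.755%). Regions separated by treatment, counted once for each contrast, were 1, 0 with 25000 peaks and 4 with all deposited peaks (SCHLAP1 region 1 in both LNCaP contrasts that include DHT, PCGEM1 region 2 and NEAT1/MALAT1 region 8). With 25000 peaks 10.4% of all called regions were separated for DHT in RES-A. With all deposited peaks the shares were 2.68% for DHT in RES-A, 0.924% for DHT in LNCaP and 0.82% for DHT+ENZ against DHT in LNCaP.

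Peaks per window (RES-A minus LNCaP) moved with the rank taken. At PCA3 the difference of -0.667 was -1.83 with 25000 peaks (adjusted p = 0.00208), -0.967 without the shallow libraries (adjusted p = 0.0393), 4.33 with all deposited peaks (adjusted p = 0.0918; 0.0898 with the replicate block) and 2.32 with all deposited peaks without the shallow libraries, and -0.985 to -0.53 without any single library. SCHLAP1 reversed from 0.667 to -3.1 (adjusted p = 0.337) with all deposited peaks without the shallow libraries. PCGEM1 went from -0.667 to -8.83 with all deposited peaks (adjusted p = 0.0016; 0.00781 with the replicate block), to -10.97 with those without the shallow libraries, to -218 in base pairs covered (adjusted p = 0.0356), and to -0.75 to -0.568 without any single library; 6 of these 24 omissions brought the adjusted p under 0.05. NEAT1/MALAT1 went from 2.58 to -0.333 with 25000 peaks, 3.58 with all deposited peaks (adjusted p = 0.0927; 0.132 with the replicate block), 1.35 with those without the shallow libraries, and 2.34 to 2.71 without any single library. The cause was not tested.

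With same-numbered libraries blocked, the adjusted p for top-ranked peaks was 0.00391 at NEAT1/MALAT1, 0.0625 at PCGEM1, 0.323 at PCA3 and 0.328 at SCHLAP1. The numbers paired the libraries weakly if at all. The mean correlation of the deviations of same-numbered libraries was 0.013 between sublines, 0.091 between LNCaP treatments (lowest -0.135) and 0.016 between RES-A treatments. Libraries of different numbers had means of -0.006, -0.042 and -0.008. Depth limits absent peaks: a missing peak in a shallow library does not show closed chromatin.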
